A study of Mus musculus with 10 samples.

Results

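A set of 10 genes that mark white blood cells, above all macrophages and monocytes, was followed through tumours grown from the DAOY line, out of 33538 human genes in the deposited count table. They are PTPRC (ENSG00000081237), CSF1R (ENSG00000182578), AIF1 (ENSG00000204472), CD68 (ENSG00000129226), CD163 (ENSG00000177575), CD14 (ENSG00000170458), ITGAM (ENSG00000169896), TYROBP (ENSG00000011600), FCER1G (ENSG00000158869) and FGR (ENSG00000000938). They were chosen by name as markers, with no threshold on a measured value, but with earlier results on their levels over the 3 diets known. Levels and differences between diets are therefore given as a description, and no count over these genes is independent support for a difference. DAOY is an established human medulloblastoma cell line. It was implanted in the flank of nude mice, which have no thymus and so lack mature T cells, while their macrophages and other myeloid cells remain. The mice, labelled f for sex, ate ordinary chow (control, 3 tumours), or received an oil with docosahexaenoic acid (DHA oil, 3 tumours) or fish oil (4 tumours), the last read here as the combination of DHA and eicosapentaenoic acid. All tumours carry the label of 30 days of treatment, while the age of the mice is not stated in them. The labels do not say which mouse each library came from, and a p-value here covers the variation among these 10 libraries, part of which may be technical.

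Macrophages live on signals from the CSF1 receptor, carry the phosphatase CD45 (PTPRC) with all other leukocytes, and read their surroundings through receptors that pair with the adaptors TYROBP and FCER1G. These adaptors hold a short tyrosine motif that Src-family kinases such as FGR phosphorylate. In a graft, the tumour cells are human and the infiltrating leukocytes are those of the mouse. A table of human genes can then hold such reads from the tumour cells themselves or from mouse RNA alike enough to align to a human gene. These sources were not separated here, and no source used here says whether mouse reads were removed. In bulk tumours, fewer cells of a type and less RNA per cell cannot be told apart either.

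Total counts were 6187116 to 10035702 per library. Libraries of 1 group correlated at r = 0.961 to 0.986 across tested genes, and those of different groups at 0.963 to 0.987. Fish oil replicates 4 and 2 stood apart on the first principal component (26.4% of the variance), at 52.9 and 21.4 against -19.1 to 1.71 in the other 8, so values without them are given where a result rests on them. The table pairs no names with its identifiers. Names of the 10 genes come with the list, and markers of tumour, muscle, endothelial, lymphoid or other cells were not looked up.

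All 10 genes had at least 1 read in all 10 libraries, as did 52.9% of the genes in the table. With at least 4 reads asked of every library, above the 3 that a count of 0 would allow, 8 of the 10 remained. With at least 10 reads in every library there were 6, namely PTPRC, CSF1R, AIF1, CD68, CD14 and FGR. The low-count filter before testing (filterByExpr with a minimum count of 10) kept 8 of the 10 and left out ITGAM (8.80 reads per library on average) and CD163 (6.80 reads). The nearest gene kept was TYROBP at 11.3 reads. Reads summed over the 10 genes were 225 to 593 per library. Given as CPM, counts divided by the effective library total and scaled as usual, 1 read is worth 0.0978 to 0.160 CPM. Detection thus rests on few reads, and a detected gene may still be too thinly covered to compare.

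Summed over the 10 genes, the level was 59.9, 51.5 and 59.6 CPM in control replicates 1 to 3. It was 30.5, 27.8 and 39.1 CPM in DHA oil and 36.0, 61.2, 51.1 and 35.8 CPM in fish oil. Every DHA oil library lay below every control. Of the fish oil libraries, replicate 2 lay above every control, replicate 3 just below the lowest control, and replicates 1 and 4 within the range of DHA oil. CSF1R and CD68, with the most reads, weigh most in this sum. Gene by gene, DHA oil had the lowest mean of the 3 diets for 9 of the 10, where 34.5% of all tested genes had theirs. The control mean was the highest for 6 of the 10, where 29.3% of tested genes had theirs. Fish oil was highest for 3 of the 10 (CD68, ITGAM and CD163) and DHA oil for 1 (CD14), where 37.4% and 33.3% of tested genes were highest in these diets. ITGAM and CD163, counted among the 10, are not among the tested genes that these shares cover. The highest means of fish oil for CD68, ITGAM and CD163 rest on fish oil replicates 2 and 4. In fish oil replicates 1 and 3, ITGAM was at 0.801 and 0.912 CPM, below the control mean of 1.14 CPM. CD163 was there at 0.320 and 0.912 CPM beside a control mean of 0.753 CPM. CD68 was at 8.97 and 13.8 CPM beside a control mean of 11.9 CPM.

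**Figure D1:**
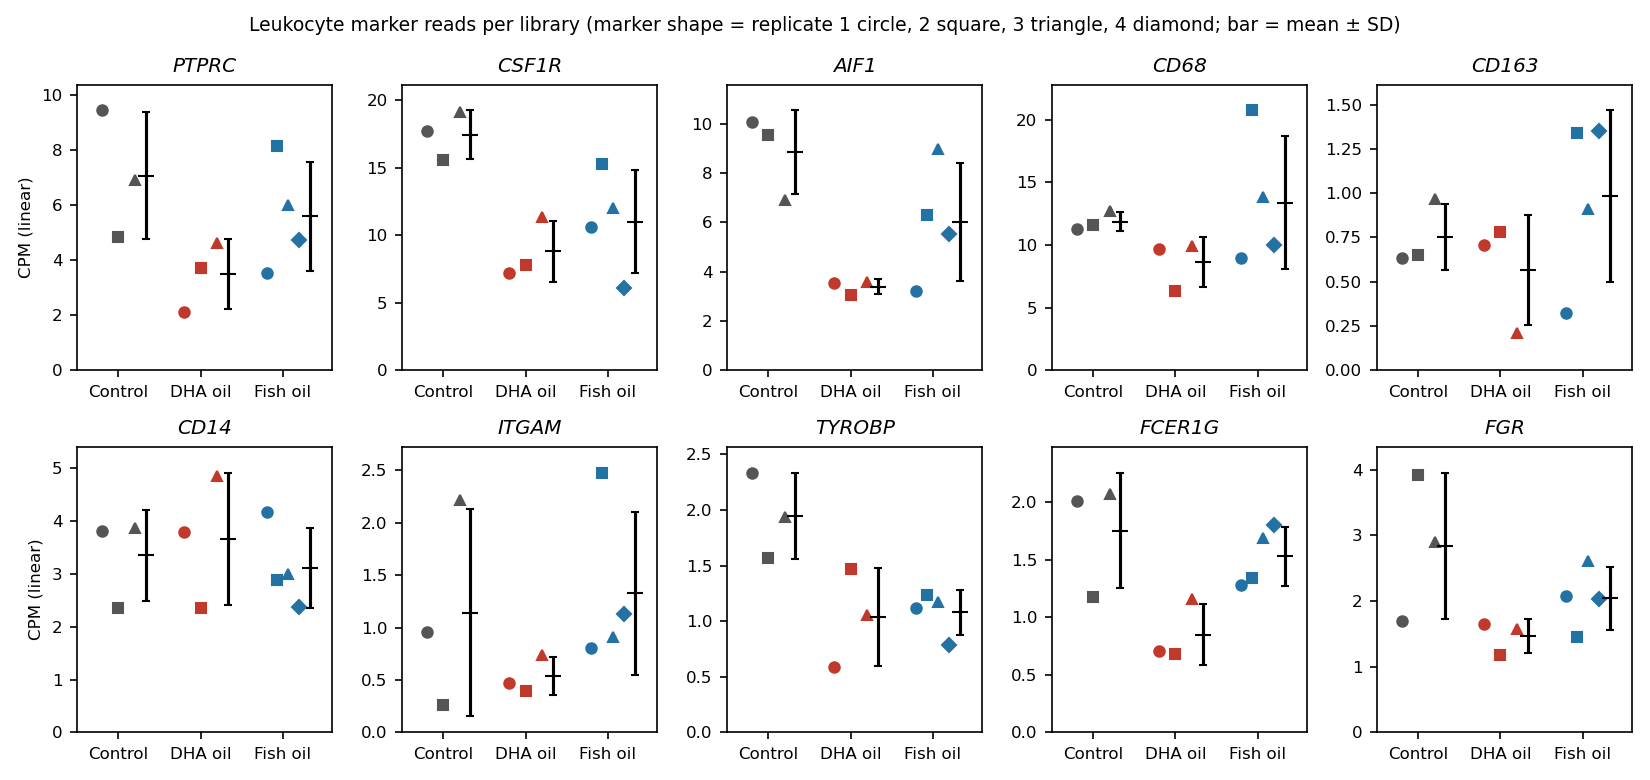
Level in CPM (linear axis) of each of the 10 genes in each library, by diet, with the mean and SD of the group as a bar beside the points. For PTPRC, CSF1R, AIF1, CD68, TYROBP, FCER1G and FGR every DHA oil point sits below every control point, and CD14 shows no such order.

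PTPRC encodes CD45, the tyrosine phosphatase on the surface of all nucleated blood cells and the broadest leukocyte marker of the list. It stood at 9.44, 4.84 and 6.91 CPM in control, at 2.13, 3.71 and 4.63 CPM in DHA oil, and at 3.52, 8.15, 5.99 and 4.73 CPM in fish oil. DHA oil lay below control without overlap, by a narrow gap between 4.63 and 4.84 CPM, and fish oil overlapped both. Control replicate 1 was the highest library of all. The log2 fold change of DHA oil against control was -1.01 ± 0.35 (SE), and -0.74 without that library.

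CSF1R is the receptor for CSF1 and interleukin 34 that keeps macrophages alive. It stood at 17.7, 15.6 and 19.1 CPM in control, at 7.21, 7.82 and 11.4 CPM in DHA oil and at 10.6, 15.3, 12.0 and 6.08 CPM in fish oil. All 7 oil libraries lay below all 3 controls. Group means were 17.4 ± 1.78 CPM for control (SD, n = 3), 8.80 ± 2.25 CPM for DHA oil (SD, n = 3), and 11.0 ± 3.81 CPM for the 4 fish oil libraries (SD). The nearest oil library, fish oil replicate 2, was just short of the lowest control. The difference was 1.98-fold for DHA oil against control and 1.59-fold for fish oil against control.

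AIF1, also called IBA1, is an actin- and calcium-binding protein of macrophages and microglia. Its levels were 10.1, 9.54 and 6.91 CPM in control, 3.55, 3.03 and 3.58 CPM in DHA oil, and 3.20, 6.30, 8.99 and 5.52 CPM in fish oil. The DHA oil libraries lay close together, at 3.39 ± 0.309 CPM (SD, n = 3) against 8.84 ± 1.69 in control (SD, n = 3). Counting error alone spans more, at 2.06 to 4.30 CPM (exact Poisson 95% interval) for the 31 reads of DHA oil replicate 2. The fish oil libraries ran from the DHA oil level in replicate 1 to the control level in replicate 3. The log2 fold change of DHA oil against control, -1.39 ± 0.31 (SE) or 2.62-fold lower, was the widest of the 10 genes in that comparison. It stayed between -1.53 and -1.28 with any 1 library left out.

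CD68 is a heavily glycosylated protein of the lysosome, abundant in macrophages but present in many other cells. It stood at 11.2, 11.6 and 12.7 CPM in control, at 9.69, 6.35 and 9.90 CPM in DHA oil, and at 8.97, 20.7, 13.8 and 10.02 CPM in fish oil. DHA oil lay below control, with a gap of 9.90 to 11.2 CPM, and fish oil replicate 2 stood above all other libraries. The log2 fold change of fish oil against control was 0.19, and turned to -0.11 without that library and -0.05 without fish oil replicates 2 and 4, so no direction can be given.

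CD163, the haemoglobin scavenger receptor of macrophages, had 2 to 13 reads per library. Its level was 0.637, 0.653 and 0.968 CPM in control, 0.709, 0.782 and 0.211 CPM in DHA oil, and 0.320, 1.34, 0.912 and 1.35 CPM in fish oil. The diets overlapped throughout. Fish oil replicates 2 and 4 held the highest values, and the lowest, 2 reads each, were DHA oil replicate 3 and fish oil replicate 1.

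CD14 hands bacterial lipopolysaccharide to Toll-like receptor 4 and is a classical monocyte marker. It stood at 3.82, 2.35 and 3.87 CPM in control, at 3.78, 2.35 and 4.85 CPM in DHA oil, and at 4.16, 2.89, 3.00 and 2.36 CPM in fish oil. All diets overlapped. With a log2 fold change of 0.12 for DHA oil against control (95% interval -0.59 to 0.83), it was the 1 gene of the list not lower in DHA oil, though it turned to -0.14 without DHA oil replicate 3. The lower end of this interval corresponds to 0.665 of the control level.

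ITGAM encodes the alpha chain of the integrin Mac-1, used by myeloid cells to adhere and to take up complement-coated particles. It was at 0.955, 0.261 and 2.21 CPM in control, at 0.473, 0.391 and 0.737 CPM in DHA oil, and at 0.801, 2.48, 0.912 and 1.13 CPM in fish oil. Fish oil lay above DHA oil without overlap, by a gap of 0.737 to 0.801 CPM that is less than 1 read is worth. The controls reached from below both to near the top. The lowest of these values, in control replicate 2, is 2 reads (exact Poisson 95% interval 0.242 to 7.22 reads). The highest, in fish oil replicate 2, is 24 reads (15.4 to 35.7). These intervals cover counting error alone.

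TYROBP, also called DAP12, is the adaptor through which receptors such as TREM2 signal. It stood at 2.33, 1.57 and 1.94 CPM in control, at 0.591, 1.47 and 1.05 CPM in DHA oil, and at 1.12, 1.24, 1.17 and 0.788 CPM in fish oil. As with CSF1R, all 7 oil libraries lay below all 3 controls, here on 5 to 22 reads per library. The gap between DHA oil replicate 2 and control replicate 2, 1.47 against 1.57 CPM, is about what 1 read is worth. The oils did not separate: the log2 fold change of fish oil against DHA oil was 0.03, with an interval of -0.80 to 0.87 that allows a difference in either direction.

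FCER1G, the gamma chain shared by Fc receptors, stood at 2.02, 1.18 and 2.07 CPM in control, at 0.709, 0.684 and 1.16 CPM in DHA oil, and at 1.28, 1.34, 1.69 and 1.80 CPM in fish oil. DHA oil lay below both other diets without overlap. The gap to the lowest control, 1.16 against 1.18 CPM, is less than 1 read is worth. The gap to the lowest fish oil library, replicate 1, is 1.16 against 1.28 CPM, less than the 0.160 CPM that 1 read is worth in that library. Fish oil lay within the range of control.

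FGR is the Src-family kinase of the list, found mainly in myeloid cells. It stood at 1.70, 3.92 and 2.90 CPM in control, at 1.66, 1.17 and 1.58 CPM in DHA oil, and at 2.08, 1.44, 2.61 and 2.03 CPM in fish oil. DHA oil again lay just below the lowest control, 1.66 against 1.70 CPM, a gap of less than 1 read is worth. Here the high control was replicate 2 with 30 reads and the low one replicate 1 with 16, whereas PTPRC, AIF1 and TYROBP had their highest value in control replicate 1. The log2 fold change of DHA oil against control was -0.94, and -0.63 without control replicate 2.

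The first comparison set DHA oil against ordinary chow. Of the 10 genes, 7 were lower without overlap in DHA oil, by 1.37-fold (CD68) to 2.62-fold (AIF1), and ITGAM, CD163 and CD14 overlapped. Among all 16013 genes tested, 5.93% were lower in DHA oil without overlap. For FGR and FCER1G the gap to the lowest control is less than 1 read is worth, and for TYROBP about 1 read. Of the 8 tested genes of the list 0 passed the quasi-likelihood test of edgeR after Benjamini-Hochberg adjustment over all genes, and 0% of all genes did. The smallest adjusted p was 0.476 (AIF1). At an unadjusted p under 0.05 there were 6 of the 8, all but CD68 and CD14, against 2.74% of all genes. AIF1 was called by DESeq2 (adjusted p = 0.0384), which called 11 of the 16013 genes. It was also called by edgeR with no filter on low counts (adjusted p = 0.0105), where 0.219% of 26038 genes were called. limma-voom called 0 of the 8. In the fit with no filter, which leaves none of the 10 out, the median log2 fold change of the list was -0.96 and that of all genes 0.00.

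The second comparison set fish oil against ordinary chow. CSF1R and TYROBP were lower in all 4 fish oil libraries than in every control, where 2% of all tested genes were, and 0 of the list were higher without overlap, where 1.74% were. Their log2 fold changes were -0.66 (95% interval -1.21 to -0.12) and -0.85 (-1.63 to -0.07), and -0.63 and -0.76 without fish oil replicates 2 and 4. edgeR called 0 of the 8 tested genes, where 0.00624% of all genes were called, with 2 of the 8 at an unadjusted p under 0.05 (3.48% of all genes). DESeq2 and limma-voom called 0 as well, and edgeR with no filter called 0 of the 10 (0.215% of all genes). The list's median with no filter was -0.27, beside 0.00 for all genes. Both comparisons use the same 3 controls, so a low value in each is not 2 separate findings.

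The third comparison set the oils against each other. Fish oil was higher than DHA oil in the fit for 9 of the 10 genes and lower for CD14, with a list median of 0.66 with no filter, beside 0.00 for all genes. FCER1G and ITGAM were higher in fish oil without overlap, with log2 fold changes of 0.84 (0.04 to 1.64) and, with no filter, 1.33 (0.21 to 2.45). Of all genes tested, 2.87% were higher without overlap, and ITGAM is not among the genes that this share covers. For ITGAM the gap, 0.737 against 0.801 CPM, is less than 1 read is worth. For FCER1G the gap, 1.16 against 1.28 CPM, is less than the 0.160 CPM that 1 read is worth in fish oil replicate 1, the lower edge of that group. ITGAM had 24 reads in fish oil replicate 2, and 5, 7 and 10 reads in replicates 1, 3 and 4. Its fold change leans on replicate 2. Replicates 1, 3 and 4 were at 0.801, 0.912 and 1.13 CPM, each below the fish oil mean of 1.33 CPM. Without fish oil replicate 2 the log2 fold change of CD68 went from 0.64 to 0.34, of PTPRC from 0.69 to 0.44, of CSF1R from 0.32 to 0.10 and of TYROBP from 0.03 to -0.05. Without fish oil replicates 2 and 4 these were 0.41, 0.45, 0.36 and 0.12, that of FCER1G was 0.81 and that of AIF1 0.88. AIF1 was 1.79-fold higher in fish oil, with fish oil replicate 1 inside the DHA oil range. edgeR called 0 of the 8 tested genes and 0% of all genes (smallest adjusted p = 0.875), with 3 of the 8 at an unadjusted p under 0.05 (4.84% of all genes). DESeq2 and limma-voom called 0 of the 8, and edgeR with no filter 0 of the 10 (0.0538% of all genes).

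With the mean of both oils set against control, the 8 tested genes had log2 fold changes from -0.97 (AIF1) to -0.01 (CD14). CSF1R and TYROBP were lower in all 7 oil libraries than in every control, where 0.662% of all tested genes were. For TYROBP the gap, 1.47 against 1.57 CPM, is about what 1 read is worth. edgeR called 0 of the 8, where 0.131% of all genes were called, with 5 of the 8 at an unadjusted p under 0.05 (2.62% of all genes). DESeq2 and limma-voom called 0 of the 8. When the low-count filter was dropped, edgeR called CSF1R (log2 fold change -0.83, adjusted p = 0.0364) and AIF1 (-0.97, adjusted p = 0.0450), where 0.292% of all genes were called.

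**Figure D2:**
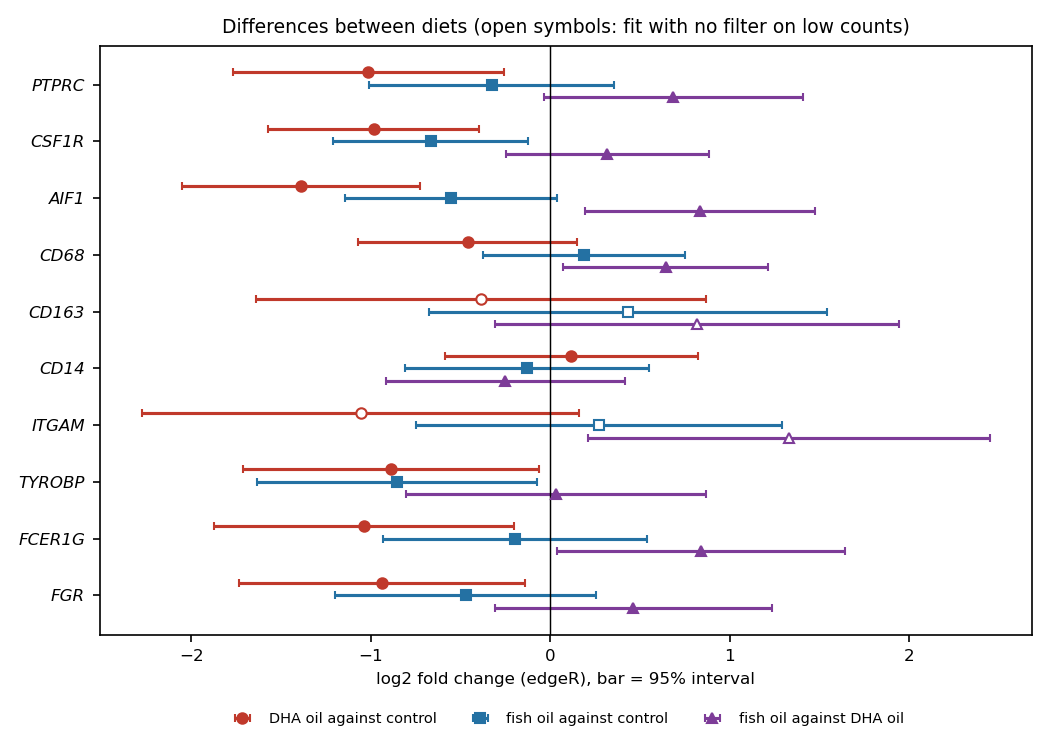
Log2 fold change of each gene in 3 comparisons, with its 95% interval from edgeR as a bar; ITGAM and CD163 (open symbols) come from the fit with no filter on low counts. The DHA oil symbols lie left of 0 for all genes but CD14, and the fish oil against DHA oil symbols lie right of 0 for all but CD14.

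Libraries of 1 diet differed among themselves as well. Control replicate 3 was above the gene's own mean over all libraries for 10 of the 10 genes, control replicate 1 for 6 and control replicate 2 for 5. Each DHA oil library was above it for 1 gene. Among the fish oil libraries, replicates 2 and 3 were above it for 6 genes each, replicate 4 for 3 and replicate 1 for 1. DHA oil replicate 2 held the lowest value of 5 of the 10 genes. Fish oil replicate 2, one of the libraries that stood apart over all genes, had the highest CD68 and ITGAM, and fish oil replicate 4, the other, had the lowest CSF1R and the highest CD163. Of all tested genes, 11.4% were highest in fish oil replicate 2 and 24.6% in fish oil replicate 4. The fish oil group thus held high and low libraries for most of the list.

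**Figure D3:**
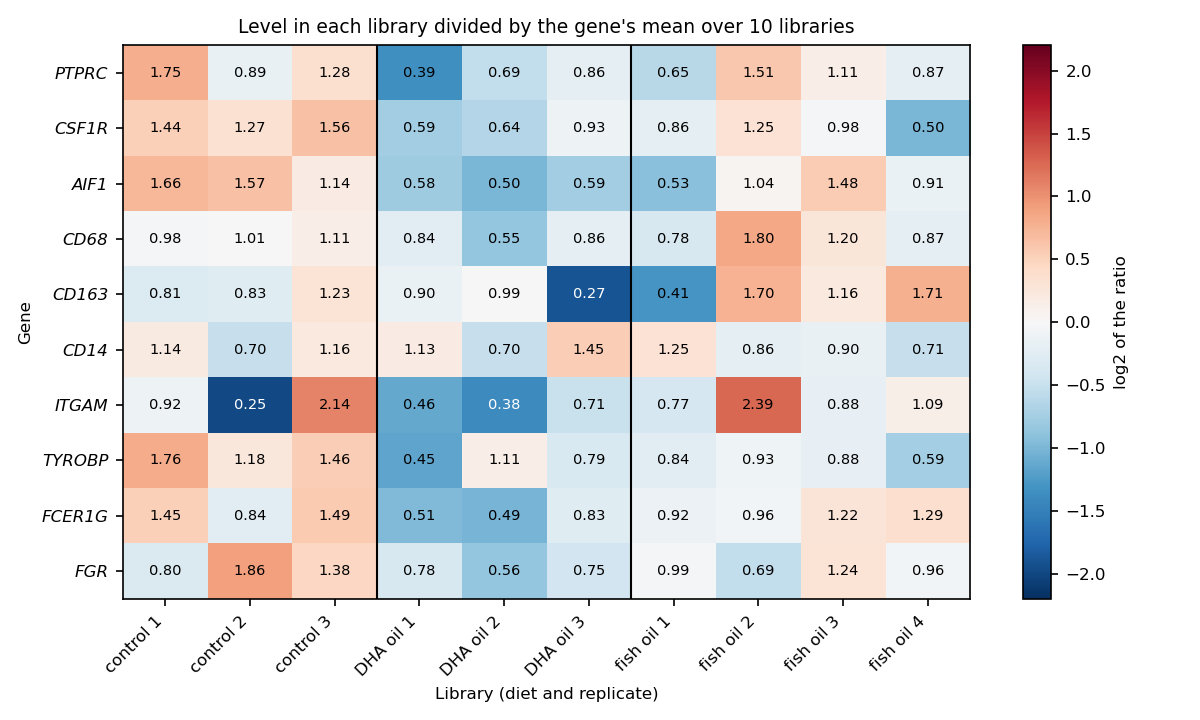
Level of each gene in each library divided by that gene's mean over the 10 libraries (number in the cell), coloured by its log2 value. The DHA oil columns are mostly blue (below the mean), control replicate 3 is red throughout, and fish oil replicate 2 is above 1 for 6 genes while fish oil replicate 1 is above 1 for CD14 alone.

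The spread over the 10 libraries was set beside what counting alone would give at the same mean number of reads. AIF1 had a coefficient of variation of 45.2% where counting gives 14.0%, PTPRC 41.4% against 14.7%, CSF1R 36.8% against 9.84% and CD68 33.4% against 10.1%. Of the genes with under 20 reads a library on average, 4 lay nearer to counting error, with 35.4% against 29.2% for FCER1G, 39.3% against 29.7% for TYROBP, 39.2% against 24.0% for FGR and 47.7% against 38.3% for CD163. CD14 varied least, at 26.2% against 18.8%. ITGAM, also thinly covered, varied most and far from counting error, at 71.8% against 33.7%.

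**Figure D4:**
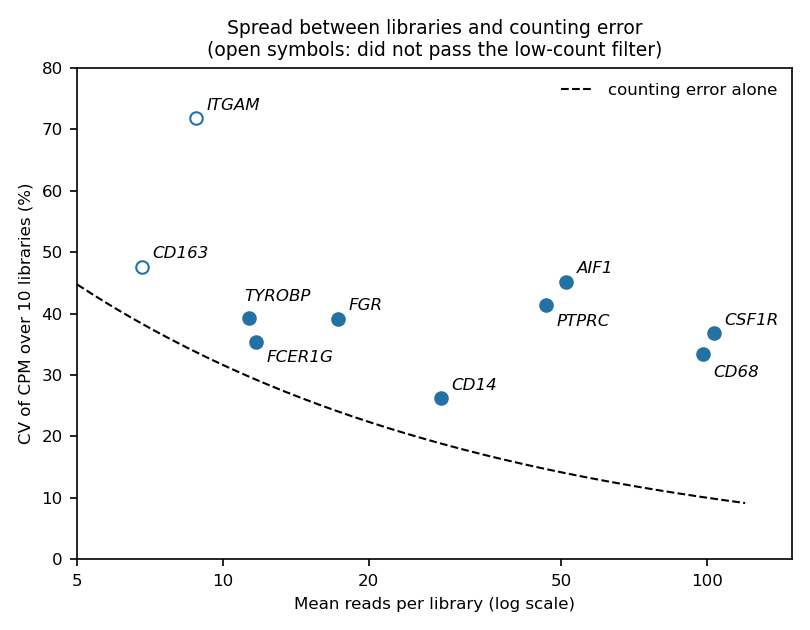
Coefficient of variation of CPM over the 10 libraries (percent) against the mean reads per library (log axis), with the curve that counting error alone gives. AIF1, PTPRC, CSF1R and CD68 lie far above the curve, CD14, CD163, FCER1G, TYROBP and FGR nearer to it, and ITGAM highest.

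Across the 10 libraries, the 8 tested genes formed 28 pairs, with a median Pearson r of log2 CPM of 0.49. The highest was CSF1R with TYROBP (r = 0.80, rho = 0.84), followed by PTPRC with FCER1G (r = 0.77) and PTPRC with CSF1R (r = 0.74). The pairs of CD14 ran from -0.25 with AIF1 to 0.27 with CSF1R. These points share diet and library, and after each diet's mean was taken out the median r was 0.13. CSF1R with TYROBP was then 0.54, PTPRC with TYROBP 0.68 and CD68 with CSF1R 0.66. CD14 was then at 0.49 with FCER1G and 0.48 with CSF1R, and FGR at -0.62 with PTPRC and -0.57 with TYROBP. The correlations are descriptions over 10 libraries, some resting on under 20 reads a library.

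Among all 16012 other tested genes ranked by r, CSF1R was the 38th nearest to TYROBP, PTPRC the 38th nearest to FCER1G and the 68th nearest to AIF1. For CD14 the nearest gene of the list, CSF1R, was at place 4676. For CD68 it was PTPRC at place 543 (r = 0.63), and for FGR it was AIF1 at place 380 (r = 0.60). The most alike genes to FGR were ENSG00000143374 (r = 0.90), at 40.5 to 52.1 CPM, and ENSG00000175356 (r = 0.89), at 2.83 to 7.60 CPM, which the table does not name.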

How the data were processed

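Reads per human gene were analysed in 10 tumour libraries, prepared with the Illumina TruSeq stranded mRNA kit and sequenced single-end, per the labels' protocols. The authors deposited raw counts, whole numbers of reads for 33538 Ensembl genes, with no normalisation that the values show. STAR, HTSeq 0.9.0 and GRCh38 are named in the submitters' processing notes. The sources used here give neither the annotation release nor the strand setting, and do not say whether mouse reads were removed. Counts of overlapping or near-identical genes are therefore uncertain. GEO labels the organism as mouse, the host. Members and lists were chosen with earlier results of these data known. The lists of other cell types were fixed by symbol and could not be applied, since the table pairs no identifiers with names.

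Genes passing filterByExpr (minimum count 10; 16013 genes) were normalised by TMM. A single model of the 10 libraries, with diet as its factor, was fitted with edgeR 4.0.16 under R 4.3.3 and tested by quasi-likelihood, with Benjamini-Hochberg adjustment and a threshold of 0.05. SEs were derived as the log2 fold change over the root of F, and 95% intervals use the test's total degrees of freedom. CPM divides counts by the TMM-effective library total, and log2 CPM for correlations uses a prior count of 2. All 10 genes were described by name. The 2 genes most alike are named for FGR alone, which comes first in the list as supplied, though not in the order printed here. Alternatives were other scaling, no or a stricter filter, DESeq2 1.42.0, limma-voom (limma 3.58.1), the compared groups alone, a replicate block, and leaving out libraries. The scripts were tested on simulated data. All columns of the table were used.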

Additional observations from a re-analysis of the deposited data

How the results depend on the processing

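The number of the listed genes called was 0 in each of the 4 comparisons, and stayed 0 with any 1 library left out (0 to 0 called). With no filter on low counts it was 1 for DHA oil against control and 2 for both oils against control, and DESeq2 gave 1 for DHA oil against control. The count of detected genes went from 10 to 6 when at least 10 reads were asked of every library. Of 668 recomputed log2 fold changes, 664 moved by less than the SD between replicates and crossed no threshold, and the other 4 were the calls of AIF1 and CSF1R given above. Uncalled differences near 0 changed sign under some settings, among them those of CD14, and of TYROBP between the oils. All 60 recomputed group levels moved by less than that SD under other scaling. Fits without fish oil replicates 2 and 4, or without control replicate 1 and fish oil replicate 2, were added after seeing the data and called 0 of the list.

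Over all genes, edgeR called 0 for DHA oil against control, and 57 with no filter, 11 with DESeq2 and 3 with limma-voom. For fish oil against control it called 1, against 56, 20 and 0 in the same order, 7 in a fit of the compared groups alone, and 0 with library totals alone or a strict filter. For fish oil against DHA oil it called 0, against 14 with no filter and 1 with DESeq2. For both oils it called 21, against 76 with no filter, 1 with limma-voom and 0 with a strict filter or without fish oil replicates 2 and 4. With any 1 library left out these counts ran from 0 to 5, 0 to 22, 0 to 1 and 3 to 35. The cause was not tested.

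Replicate numbers in the titles were not used to pair the samples in the main fit. Deviations of same-numbered libraries correlated at -0.17 to 0.18, over 0.1 in 1 of 9 pairs. Pairs with different numbers were not compared, so these values cannot show whether the numbers pair samples. With the replicate number as a block, 0 of the listed genes were called in any comparison, and over all genes 1, 0, 0 and 12. Only fish oil has a replicate 4, so that library had a block of its own and added nothing to the diet differences in that fit. Depth limits the list: ITGAM, CD163, TYROBP and FCER1G rest on 2 to 24 reads per library.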
